A study of Mus musculus with 6 samples.

Results

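The genes described here are 10 regulators and protein-modifying enzymes of hard keratinising epithelium, taken by name from a table of 55487 genes. Transcription factors make up 5 of them (Hoxc13, Foxn1, Dlx3, Msx2 and Lef1). The other 5 are the peptidylarginine deiminases Padi1 and Padi3, the transglutaminases Tgm1 and Tgm3, and the calcium-binding protein S100a3. All 10 had at least 1 read in the table, and 6 passed the filter on low counts that the main test uses (Foxn1, Dlx3, Padi1, Padi3, Tgm1 and Tgm3).

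RNA was sequenced from whole grafts of B16F10, a pigmented mouse melanoma line, grown under the mucosa of the tongue in immune-competent C57BL/6J mice labelled wild type. In 3 inhibition grafts the nociceptive nerves that reach the lymph nodes were labelled as inhibited, and 3 grafts were labelled control. According to the design text, AAV2/retro-Trpv1-hM4D(Gi)-mCherry or AAV2/retro-Trpv1-mCherry was injected into the cervical nodes 6 weeks before the graft. AAV2/retro is a virus that travels back along axons, Trpv1 in its name is a channel gene of nociceptors, and hM4D(Gi) is a receptor that silences neurons when bound by its ligand. The mice then received the ligand deschloroclozapine 2 times per day for 12 days. The sample labels call the controls vehicle-treated, so whether the controls received the ligand with the mCherry vector, or a vehicle, is not settled by the sources used here. The labels do not say that the 6 grafts came from separate animals, so the p-values reflect no more than the spread among these 6 samples, which may be technical. The manipulated neurons lie outside the graft, and the vector's genes were not in the table, so the manipulation could not be checked here.

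Hard keratins are the cysteine-rich filament proteins of hair, nail and the filiform papillae of the tongue. Hoxc13, Foxn1, Dlx3, Msx2 and the Wnt effector Lef1 act in the precursor cells of the hair shaft, where mouse Hoxc13 and Msx2 lie upstream of Foxn1. Deiminases then turn arginine into citrulline in matrix proteins such as trichohyalin (Tchh), and transglutaminases join those proteins through glutamine and lysine side chains into an insoluble network.

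Levels are in CPM, the count of a gene per library total corrected with TMM factors and brought to the same scale for all 6 grafts. With totals of 14477277 to 20972494 counts per library, a single count stood for 0.0477 to 0.0691 unscaled CPM. Melanoma genes were abundant, Pmel standing at 4890 ± 520 CPM in inhibition grafts and 4040 ± 1010 CPM in control grafts (SD, n = 3 each). Of the salivary gland markers, 6 of 12 had no read in any library. RNA of tongue muscle and epithelium was present in every graft. The summed level of 12 muscle genes was 1953 to 3483 CPM in inhibition grafts and 707 to 1615 CPM in control grafts, and that of 10 fibroblast genes was 1312 to 1686 CPM in inhibition grafts and 750 to 1100 CPM in control grafts. The summed level of 15 squamous epithelium genes was 1878 to 5361 CPM in inhibition grafts and 1550 to 3170 CPM in control grafts. The part of muscle and fibroblast RNA in the results below was not tested, and epithelial RNA is measured beside them by keratin counts. Fewer cells of a type and less RNA per cell cannot be told apart in whole grafts.

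The RefSeq promoter table (GRCm38.p6, the assembly that mm10 names) held 15 start sites for 8 of the 10 genes, and Hoxc13 and Dlx3 had no entry. To show the sequence at which regulators of this kind could act, the 250 bases before the start are given 5′ to 3′ in the direction of the gene for the abundant enzyme Tgm3, the paired deiminase genes Padi1 and Padi3, the regulator Foxn1 and, for comparison, the hard keratin gene Krt34. Capitals mark matches on either strand to 5 short motifs. They are TATAAA for the general start-site box, CTTTGA for the factors of the Lef1 family, TTTATTG for posterior Hox proteins such as Hoxc13, TAATTG for homeobox proteins of the Dlx and Msx kind, and GACGC for Foxn1. None of these matches overlapped another within the 5 sequences.
Tgm3, chr2:130012090-130012339, plus strand: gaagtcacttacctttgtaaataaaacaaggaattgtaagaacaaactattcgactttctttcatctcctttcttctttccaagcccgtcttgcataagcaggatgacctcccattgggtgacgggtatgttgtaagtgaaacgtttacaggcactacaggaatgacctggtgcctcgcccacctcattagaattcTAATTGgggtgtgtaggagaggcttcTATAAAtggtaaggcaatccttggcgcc
Padi1, chr4:140845779-140846028, minus strand: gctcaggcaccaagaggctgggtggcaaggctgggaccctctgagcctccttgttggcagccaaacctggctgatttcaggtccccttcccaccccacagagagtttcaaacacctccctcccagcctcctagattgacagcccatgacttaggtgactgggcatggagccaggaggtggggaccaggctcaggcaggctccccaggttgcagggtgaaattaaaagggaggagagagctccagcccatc
Padi3, chr4:140810649-140810898, minus strand: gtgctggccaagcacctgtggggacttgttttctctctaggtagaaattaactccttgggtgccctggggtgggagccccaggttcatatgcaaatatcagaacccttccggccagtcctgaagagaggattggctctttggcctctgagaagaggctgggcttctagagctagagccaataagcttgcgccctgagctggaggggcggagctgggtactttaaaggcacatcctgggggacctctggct
Foxn1, chr11:78386609-78386858, minus strand: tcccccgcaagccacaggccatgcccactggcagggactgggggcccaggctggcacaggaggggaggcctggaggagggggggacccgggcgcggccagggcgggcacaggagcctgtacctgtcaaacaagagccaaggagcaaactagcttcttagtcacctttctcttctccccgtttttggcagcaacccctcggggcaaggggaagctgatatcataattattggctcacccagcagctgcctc
Krt34, chr11:100041555-100041804, minus strand: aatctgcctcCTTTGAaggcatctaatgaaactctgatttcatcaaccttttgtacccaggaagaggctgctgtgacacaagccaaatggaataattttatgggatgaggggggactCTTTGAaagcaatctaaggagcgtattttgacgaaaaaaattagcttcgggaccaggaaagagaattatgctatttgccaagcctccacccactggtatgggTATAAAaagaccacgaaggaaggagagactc

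Tgm3 carried TATAAA 22 bases before its start and TAATTG 48 bases before it. Krt34 carried TATAAA 25 bases before its start and CTTTGA at 127 and 234 bases. In the Padi1, Padi3 and Foxn1 windows none of the 5 motifs was found. TATAAA was present in the promoters of 3 of 8 genes described here (Lef1, Tgm3 and S100a3) and of 5 of 7 hard keratin genes with an entry, against 12.4% of 32851 mouse promoters of the same length. CTTTGA was present in 3 of 8 (Lef1, Tgm1 and S100a3) and 4 of 7, against 13.8% of all promoters. TAATTG was present in 2 of 8 (Tgm3 and S100a3) and 0 of 7, against 7.17%, and GACGC in 3 of 8 (Msx2, Lef1 and S100a3) and 1 of 7, against 22.6%. TTTATTG was present in 0 of 8 and 0 of 7, against 4.20%. Lef1 and S100a3 had 4 start sites each and Tgm1 had 2, which gave these genes more sequence to match. The shares over all promoters are per start site. Counted in that way for the genes described here, TATAAA was in 3 of 15 and CTTTGA in 3 of 15. TAATTG was in 2 of 15, GACGC in 4 of 15 and TTTATTG in 0 of 15. The TATAAA matches of Lef1 and Krt84 were on the opposite strand, 225 and 200 bases before the start. A match is a run of letters and says nothing of binding.

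The levels of the 10 genes spanned a wide range. Per kilobase of annotated exon, Tgm3 stood highest, at 20.4 ± 13.7 CPM per kb in inhibition grafts and 5.34 ± 2.09 CPM per kb in control grafts (SD, n = 3 each). Tgm1 followed at 3.58 ± 1.57 CPM per kb in inhibition grafts and 1.52 ± 0.666 CPM per kb in control grafts, and neither group had a graft in which Tgm1 reached the lowest Tgm3 level of that group. In inhibition grafts the next level was that of Dlx3, at 0.923 ± 0.587 CPM per kb, with all 3 values under those of Tgm1. From Dlx3 down through Foxn1 (0.435), Padi3 (0.330), Padi1 (0.307), Msx2 (0.236), Hoxc13 (0.194) and Lef1 (0.0701 CPM per kb), neighbours in the order overlapped between grafts. In control grafts the order below Tgm1 was Padi3 (0.313), Padi1 (0.162), Dlx3 (0.124), Foxn1 (0.0939), Hoxc13 (0.0660), Msx2 (0.0540) and Lef1 (0.0479 CPM per kb). Each neighbour there also overlapped the next. S100a3 was lowest in both groups.

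At the level of single genes, no regulator or enzyme passed the main test, edgeR's quasi-likelihood test with Benjamini-Hochberg adjustment over 15666 genes at an adjusted p under 0.05. The count was 0 of 6 tested, where 0.0383% of all genes tested were called in either direction. At an unadjusted p under 0.05 there were 5 of 6, all higher in inhibition grafts, where 8.36% of all genes tested were higher and 7.00% lower. Dlx3, Foxn1, Padi1 and Padi3 had fewer than 3 control grafts at the filter's level of 0.56 CPM (0, 0, 1 and 2 of them) and passed through their inhibition counts, so that share is not evidence about the set. Fitted without the count filter, edgeR called 4 of the 10 genes higher (Foxn1, Dlx3, Msx2 and Tgm1), against 2.59% of 28841 genes, and DESeq2 called 2 of 6 higher (Dlx3 and Tgm1), against 2.28%. In 4 of the 10 genes every inhibition graft lay above every control graft (Foxn1, Dlx3, Padi1 and S100a3), against 7.45% of all genes with a count. The fitted fold changes had a median log2 value of 1.59 over the 6 tested genes, beside 0.00 over all genes tested, and this too is only a description.

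**Figure D1:**
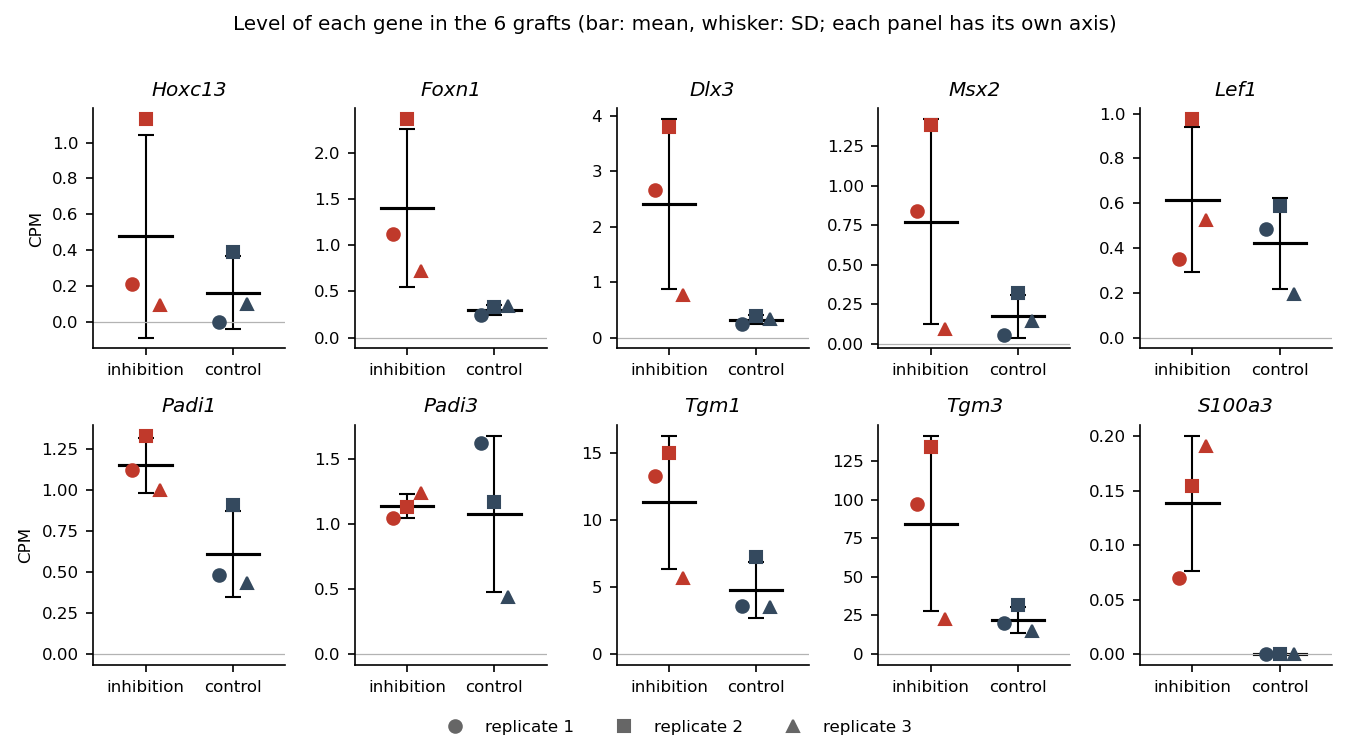
Level of each gene in CPM (vertical axis, its own scale in each panel) in the 3 inhibition and 3 control grafts, with the mean as a bar and the SD as a whisker. Inhibition 2 is the highest of the 6 grafts in 8 of the 10 panels, the exceptions being Padi3 and S100a3, and inhibition 3 lies near the controls for Hoxc13, Msx2 and Tgm3.

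Among the regulators, the values of Dlx3 and Foxn1 did not overlap between the groups. Dlx3, a homeobox factor needed for hair shaft formation in the mouse, had 38, 74 and 16 counts in inhibition grafts 1, 2 and 3, against 4, 6 and 7 counts in control grafts 1, 2 and 3. That is 2.66, 3.79 and 0.762 CPM in inhibition grafts, against 0.241, 0.390 and 0.339 CPM in control grafts. The lowest inhibition graft was above the highest control, and inhibition 2 held several times the level of inhibition 3. The log2 fold change was 2.86 ± 0.62 (standard error; adjusted p = 0.162 in edgeR, higher in 3 of 3 inhibition grafts). DESeq2 gave 2.89 with an adjusted p of 0.00323.

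Foxn1, the factor lost in nude mice and needed for hair shaft keratinisation and for the thymus, had 16, 46 and 15 counts in inhibition grafts, against 4, 5 and 7 counts in control grafts. The means were 1.40 ± 0.856 CPM in inhibition grafts and 0.302 ± 0.0528 CPM in control grafts (SD, n = 3 each), and the groups did not overlap. Its log2 fold change was 2.18 ± 0.54 (edgeR adjusted p = 0.170, and 0.00214 without the count filter). DESeq2 gave 2.21 with an adjusted p of 0.0642 and did not call it. No control graft held more than 7 counts.

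The other regulators had too few reads for the main test. Hoxc13, which activates hair keratin genes in the mouse, had 3, 22 and 2 counts in inhibition grafts, against 0, 6 and 2 counts in control grafts. Of its 27 inhibition counts, 22 came from inhibition 2, and the other inhibition grafts lay within the control range. Without the count filter its log2 fold change was 1.59 ± 0.77 (edgeR adjusted p = 0.345).

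Msx2, a homeobox factor of the hair matrix that BMP signalling induces, had 12, 27 and 2 counts in inhibition grafts, against 1, 5 and 3 counts in control grafts. Inhibition 1 and 2 were above every control and inhibition 3 was not. Without the count filter its log2 fold change was 2.09 ± 0.67, and edgeR called it (adjusted p = 0.0461). That fit called 748 genes higher and 439 lower, where the main fit called 5 higher and 1 lower. In the fit without the count filter, Lef1 had a log2 fold change of 0.60 ± 0.59 (edgeR adjusted p = 0.693). Lef1 had 5, 19 and 11 counts in inhibition grafts, against 8, 9 and 4 counts in control grafts. The Lef1 groups overlapped widely. Lef1 is also active in T lymphocytes. The 12 marker genes listed for them summed to 19.0 to 26.3 CPM in inhibition grafts and 17.2 to 26.5 CPM in control grafts. Tcf7 was the largest part, at 10.9 to 14.6 CPM in inhibition grafts and 10.7 to 17.9 CPM in control grafts. Cd3d, Cd3e, Cd3g and Trac held no more than 8 counts in any graft, so these sums do not measure T lymphocyte content. The part of T lymphocytes in the Lef1 counts was not tested.

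**Figure D2:**
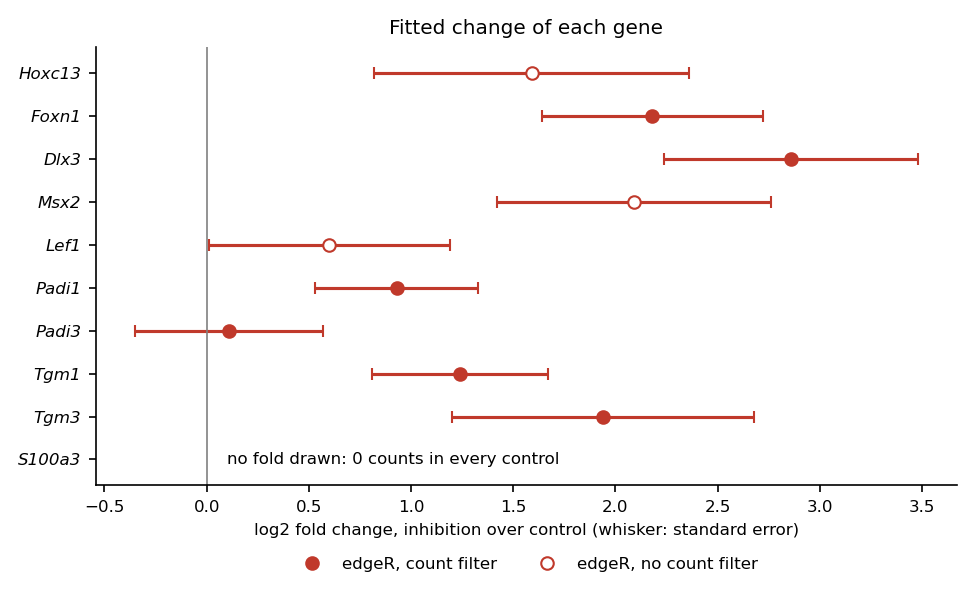
Fitted log2 fold change of each gene, inhibition over control (horizontal axis), with its standard error as a whisker. Filled points are the 6 genes of the main edgeR test and open points are genes fitted without the count filter. Dlx3 (2.86) lies farthest to the right and Padi3 (0.11) nearest to 0, and no point is drawn for S100a3, which had 0 counts in every control.

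Both transglutaminases were higher in inhibition 1 and 2 than in any control, while inhibition 3 lay inside the control range. Tgm3, an enzyme of hair follicle and epidermis that is cut to become active, stood at 96.9, 134 and 22.6 CPM in inhibition grafts, against 19.9, 31.6 and 14.8 CPM in control grafts. Its log2 fold change was 1.94 ± 0.74 (adjusted p = 0.324 in edgeR and 0.135 in DESeq2). The SD of 56.6 CPM among inhibition grafts was close to the difference between the group means of 84.4 and 22.1 CPM. Tgm1, the membrane-bound enzyme that builds the cornified envelope of keratinocytes, stood at 13.3, 15.0 and 5.67 CPM in inhibition grafts, against 3.62, 7.22 and 3.53 CPM in control grafts. Control 2 exceeded inhibition 3. The log2 fold change of Tgm1 was 1.24 ± 0.43 (adjusted p = 0.259 in edgeR and 0.0349 in DESeq2).

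Padi1, a deiminase of epidermis and hair follicle, had 16, 26 and 21 counts in inhibition grafts, against 8, 14 and 9 counts in control grafts, or 1.15 ± 0.168 CPM in inhibition grafts and 0.610 ± 0.262 CPM in control grafts (SD, n = 3 each). The groups did not overlap, and the log2 fold change was 0.93 ± 0.40 (adjusted p = 0.312 in edgeR and 0.52 in DESeq2). Of its exon bases, 32.0% are shared with the predicted gene Gm13032 on the opposite strand, and since the strand setting is unknown its counts are uncertain. Padi3, which modifies trichohyalin in hair, had 15, 22 and 26 counts in inhibition grafts, against 27, 18 and 9 counts in control grafts. Control 1 was the highest of all grafts and control 3 the lowest. The log2 fold change was 0.11 ± 0.46 (adjusted p = 0.928) and turned to -0.30 without control 3, so no direction is given for Padi3.

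S100a3, a cysteine-rich protein of the hair cuticle and a substrate of Padi3, had 1, 3 and 4 counts in inhibition grafts, against 0, 0 and 0 counts in control grafts. Set against a floor of 3 counts over the control group, the pooled inhibition libraries stood 2.56-fold higher. The floor allows for counting error in the controls only and takes the 8 inhibition counts as exact. The true fold may therefore be smaller, and single libraries held no more than 4 reads. Of the exon bases of S100a3, 4.61% are shared with the predicted genes Gm23464 and Gm42674, so the origin of these few reads is uncertain.

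On GRCm38 the genes lie on 7 chromosomes, and all 10 are annotated as protein-coding. Dlx3 (ENSMUSG00000001510, 95120119 to 95125296) and Foxn1 (ENSMUSG00000002057, 78357577 to 78386558) are on chromosome 11, Hoxc13 (ENSMUSG00000001655, 102921103 to 102928814) on chromosome 15 and Msx2 (ENSMUSG00000021469, 53466884 to 53473074) on chromosome 13. Padi3 (ENSMUSG00000025328, 140785365 to 140810648) and Padi1 (ENSMUSG00000025329, 140812983 to 140845778) are neighbours on chromosome 4. Tgm1 (ENSMUSG00000022218, 55700009 to 55713926) is on chromosome 14, where 5.76% of its exon bases are shared with Gm49067, and Tgm3 (ENSMUSG00000027401, 130012349 to 130050399) is on chromosome 2. Lef1 (ENSMUSG00000027985, 131110471 to 131224356), with 13.7% of its exon bases shared with the predicted gene Gm43352, and S100a3 (ENSMUSG00000001021, 90560578 to 90602702) are on chromosome 3.

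The genes that these factors regulate and these enzymes act on were taken from fixed lists. The 12 hard keratin genes with a read all entered the test, 5 of them with fewer than 3 control grafts at the filter's level. The filter favours positive values in such genes, so the counts here are a description. All 12 fold changes were positive, with a median log2 value of 3.55 (range 1.44 to 5.52). In 11 every inhibition graft lay above every control graft, as in 1603 of all 15666 genes tested. EdgeR called 0 of the 12 and DESeq2 called 11 higher, against 2.28% of all genes. Before adjustment 11 were higher at p under 0.05 in edgeR, against 8.36% of all genes tested. Krt34, a type I hair keratin, stood at 8.34, 17.9 and 3.91 CPM in inhibition grafts, against 0.724, 0.716 and 0.678 CPM in control grafts (log2 fold change 3.82 ± 0.61, edgeR adjusted p = 0.122). Krt33a had a log2 fold change of 5.52 (edgeR adjusted p = 0.157), Krt86 of 3.61 (0.143) and Krt81 of 3.70 (0.162). Of 20 tested keratin-associated protein genes, 16 had fewer than 3 control grafts at that level, so the filter itself favoured positive values, and the 20 positive fold changes and their median of 3.40 are a description. EdgeR called Krtap4-7, Krtap4-16 and Krtap4-2 in this family. It called 0 without inhibition 1, without inhibition 2 or without control 3 and 18 without inhibition 3, while limma-voom called 0 and DESeq2 called 19. Krtap4-8, the next by p, had a log2 fold change of 4.68 (adjusted p = 0.0672). Reads of both families can be split between near-identical copies, so single values are uncertain. These medians exceed those of the regulators and enzymes, but a difference between lists was not tested.

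Of 15 tested substrates of the enzymes, 13 had positive fold changes and 2 negative ones, with a median log2 value of 1.35, and edgeR called 0. Before adjustment, 6 of them were higher and 1 lower at p under 0.05. Trichohyalin (Tchh), a substrate of Tgm3 and Padi3 in the inner root sheath of hair, stood at 36.5, 60.0 and 23.3 CPM in inhibition grafts, against 4.16, 10.4 and 8.42 CPM in control grafts. The groups did not overlap, and its log2 fold change was 2.38 ± 0.48 (edgeR adjusted p = 0.178). Of the cornified layer proteins, filaggrin (Flg) had 3.21 (adjusted p = 0.0788) and loricrin (Lor) 1.72 (0.239) on the same scale. The protease inhibitor Cstb lay the other way, at 62.0 ± 3.58 CPM in inhibition grafts and 76.1 ± 2.93 CPM in control grafts (-0.29, adjusted p = 0.178). So did Sprr2d, with 1, 0 and 44 counts in inhibition grafts, against 108, 27 and 88 counts in control grafts. Its groups overlapped (-2.43 ± 1.23, edgeR adjusted p = 0.407).

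The other members of the enzyme families gave a range of values. Of 5 tested transglutaminases, Tgm5, another epidermal enzyme, had a log2 fold change of 1.12 ± 0.43 (edgeR adjusted p = 0.275), whereas the ubiquitous Tgm2 had 0.23 ± 0.25 and the clotting factor subunit F13a1 0.03 ± 0.16 (adjusted p = 0.693 and 0.946). Of 4 tested deiminases, Padi2, the widely expressed member, stood at 41.6, 43.7 and 43.7 CPM in inhibition grafts, against 50.4, 48.3 and 50.8 CPM in control grafts, without overlap (log2 fold change -0.21 ± 0.07, adjusted p = 0.242). Padi2 supplied most deiminase reads of the grafts, and Padi4 had 0.34 ± 0.56 (adjusted p = 0.798). No member of either family passed edgeR over all genes tested (0 in each), though before adjustment 3 transglutaminases and 1 deiminase were higher and 1 deiminase lower at p under 0.05.

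Among 19 tested genes for other transcription factors of keratinocytes, 16 had positive values. The median was 0.49 on the log2 scale, and edgeR called 0 while 9 were higher at an unadjusted p under 0.05. The epithelial differentiation factors Zfp750 and Ovol1 had 1.71 ± 0.46 and 1.43 ± 0.37 (edgeR adjusted p = 0.186 and 0.179), and Klf5 and Tfap2c had 1.27 and 1.29 (0.195 and 0.244). Of 14 tested genes of the Wnt, BMP, Shh and Eda pathways, which act upstream in the hair follicle, 9 were positive, the median was 0.30, and 2 were higher at an unadjusted p under 0.05 with 0 called. Axin2, a direct Wnt target, stood at 17.6, 16.8 and 11.3 CPM in inhibition grafts, against 7.84, 10.5 and 10.7 CPM in control grafts (0.65 ± 0.20, adjusted p = 0.214). The Shh target Gli1 had 1.10 ± 0.45 (0.296), Wnt10a had 0.87 ± 0.43 (0.362) and Ctnnb1, which encodes beta-catenin, -0.13 ± 0.07 (0.398).

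**Figure D3:**
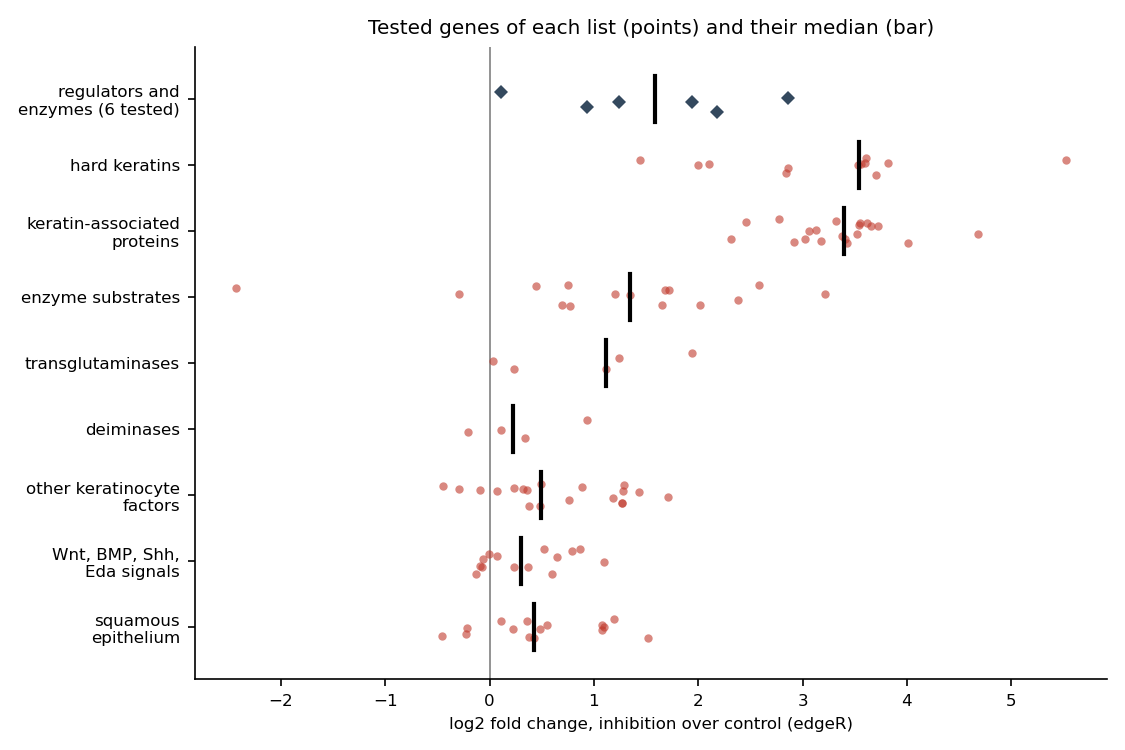
Log2 fold change of each tested gene, inhibition over control (horizontal axis), by gene list, with the list median as a bar and the 6 tested regulators and enzymes as diamonds. Medians are 3.55 for hard keratins and 3.40 for keratin-associated proteins, 1.59 for the regulators and enzymes, 1.35 for enzyme substrates and 0.43 for squamous epithelium genes.

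Whether the genes followed the amount of epithelium was examined by dividing their counts by keratin counts of the same graft. The basal keratins Krt5 and Krt14 together gave 404, 437 and 430 CPM in inhibition grafts, against 352, 542 and 445 CPM in control grafts. Their groups overlapped. Per 1000 counts of Krt5 plus Krt14, Dlx3 had 6.59, 8.68 and 1.77 counts in inhibition grafts, against 0.685, 0.721 and 0.762 counts in control grafts. Foxn1 had 2.77, 5.39 and 1.66 counts in inhibition grafts, against 0.685, 0.601 and 0.762 counts in control grafts. These ratios did not overlap between the groups for Dlx3, Foxn1, Padi1 and S100a3 (two-sided exact permutation p = 0.1 for each, the smallest that 3 against 3 samples allow; 0.25 adjusted over the 10 genes). The ratios of Tgm3, at 240, 306 and 52.6 in inhibition grafts, against 56.4, 58.4 and 33.3 in control grafts, overlapped (exact permutation p = 0.3). Those of Tgm1 also overlapped, at 26.8 ± 11.8 in inhibition grafts and 10.5 ± 2.70 in control grafts (SD, n = 3 each; exact permutation p = 0.2).

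The same division was made with suprabasal and hard keratins. Another denominator moves the log2 difference of all 10 genes by the same amount, which is the difference of the keratin sums themselves. The mucosal keratins Krt13 and Krt4 summed to 3159, 4086 and 951 CPM in inhibition grafts, against 870, 1999 and 624 CPM in control grafts, with inhibition 3 inside the control range as for Tgm3. Per 1000 counts of Krt13 plus Krt4, Dlx3 stayed apart, at 0.858 ± 0.0646 counts in inhibition grafts and 0.339 ± 0.182 counts in control grafts (SD, n = 3 each). Tgm3 had 30.7, 32.7 and 23.8 counts in inhibition grafts, against 22.8, 15.8 and 23.7 counts in control grafts, so that inhibition 3 and control 3 nearly coincided. The exact permutation p was 0.1 for each gene (0.5 adjusted over the 10 genes), and for Tgm3 it rests on the order of those 2 grafts. Tgm1 gave 4.61 ± 1.20 counts in inhibition grafts and 4.48 ± 1.06 counts in control grafts (exact permutation p = 0.7). Against all 15 squamous genes, Tgm1 had 3.14, 2.79 and 3.02 per 1000 in inhibition grafts, against 2.29, 2.28 and 2.28 per 1000 in control grafts (exact permutation p = 0.1, 0.25 adjusted over the 10 genes, groups not overlapping). Krt13 plus Krt4 are part of that list, with 79728 of its 104606 counts in inhibition 2 and 12889 of 32025 in control 3. The 2 denominators are therefore not separate measures.

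The hard keratins with the most reads, Krt36 and Krt84, summed to 180, 341 and 95 CPM in inhibition grafts, against 34, 74 and 42 CPM in control grafts. Per 1000 of their counts, Foxn1 had 6.24, 6.92 and 7.51 counts in inhibition grafts, against 7.04, 4.42 and 8.08 counts in control grafts, a difference in mean log2 ratio of 0.02 (exact permutation p = 1). Dlx3 had 11.3 ± 3.41 counts in inhibition grafts and 6.81 ± 1.40 counts in control grafts (SD, n = 3 each; 0.61, exact permutation p = 0.2). Tgm3 had 390 ± 151 counts in inhibition grafts and 454 ± 115 counts in control grafts (-0.27, exact permutation p = 0.6). Tgm1 had 74.1, 43.9 and 59.6 counts in inhibition grafts, against 106, 98.1 and 84.3 counts in control grafts, without overlap (-0.73, exact permutation p = 0.1, 0.4 adjusted over the 10 genes). Padi1 had 6.24, 3.91 and 10.5 counts in inhibition grafts, against 14.1, 12.4 and 10.4 counts in control grafts, so that inhibition 3 and control 3 nearly coincided. Its difference was -0.98 with an exact permutation p of 0.1, which rests on the pseudocount of 0.5 that orders those 2 grafts. A p above the threshold does not show that a ratio was equal in both groups.

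**Figure D4:**
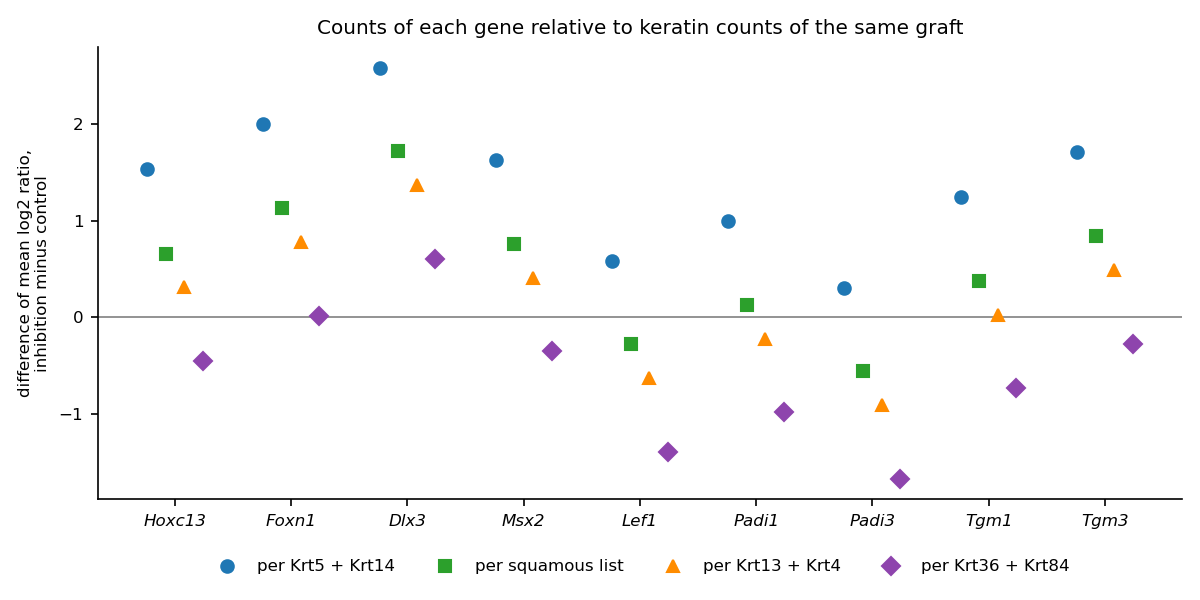
Difference of the mean log2 ratio, inhibition minus control (vertical axis), of the counts of 9 genes to 4 keratin sums of the same graft, marked by symbol and colour. Relative to Krt5 plus Krt14, all genes are shifted by the same -0.87 with the squamous list, -1.22 with Krt13 plus Krt4 and -1.98 with Krt36 plus Krt84, so their common order is arithmetic. Foxn1 lies at 0.02 on the last and Dlx3 at 0.61.

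The genes whose levels ran most like those of the enzymes and regulators were sought among 12903 tested genes with at least 1 CPM, by Pearson's r of log2 CPM over the 6 libraries. They were chosen for their r, so it is given as a description only. Closest to Tgm3 were Alox12b, an epidermal lipoxygenase (0.996), Lipm (0.994) and Muc15 (0.994). Closest to Foxn1 were the keratin-associated gene Krtap3-3 and the hair keratin gene Krt33b (0.993 each), then Camk1d (0.991). Closest to Tgm1 were Trabd2b and the muscle genes Pgam2 and Atp2a1 (0.999 each), and closest to Dlx3 Arl6ip5 (0.999), Nos1 (0.998) and the tubulin gene Tuba8 (0.995). Closest to Padi1 were the myeloid lectin gene Clec4a2 (0.996), the epithelial gene Eppk1 (0.994) and Csf1r, the receptor gene of macrophages (0.993). Closest to Padi3 were Inpp5a (0.988), Gm2a (0.977) and Scarf2 (0.976). All 6 points share the same libraries and the difference in muscle and fibroblast RNA given above. The squamous epithelium sums varied widely among grafts and overlapped between the groups.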

How the data were processed

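The authors deposited 1 table of raw read counts per Ensembl gene for 6 whole grafts, 3 inhibition and 3 control, whose whole numbers have a different total in each library. Per the submitters' processing notes, reads were aligned with HISAT2 2.0 to mm10. Which counter, annotation release or strand setting was used is not given in the sources used here. Columns were assigned by name (the table says denervation where the titles say nerve inhibition), with 0 left unused. Of 55487 IDs, 55227 matched a GENCODE M21 symbol, and the other 260 held 0.00197% of the counts. Exon lengths and positions are from GENCODE M21 (GRCm38). No pair of libraries was a repeat (chi-square per degree of freedom 7.65 to 39.2).

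The main fit used filterByExpr with the groups (at least 10 counts, at least 15 in total). Counts were scaled with TMM factors and tested with edgeR 4.0.16 in R 4.3.3 (quasi-likelihood, robust, no covariate), with adjustment over 15666 genes. Log2 fold changes are inhibition over control, and each standard error is the size of the fold change over the root of its F value. On simulated counts of this comparison (15432 genes fitted) the test called 66.3% of 98 genes with a 2-fold change. It called 97.0% of 99 with a 4-fold change and 13 of 15235 with none. The simulated spread followed the trend with mean level and left out spread particular to single genes. These rates therefore need not hold for the real genes, and a gene not called may still differ. Ratios to keratin counts used a pseudocount of 0.5 before the log and exact permutation tests. DESeq2 1.42.0, limma-voom (limma 3.58.1), RLE or upper-quartile factors, fits with no count filter or with 1 CPM required in all libraries of either group, a replicate block, single libraries left out and other keratin denominators served as alternatives.

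The genes and lists were chosen with earlier results of these data known. The naming rule took all 10 genes, up to 4 genes per pathway list by call and then by p, Krt5, Krt14, Pmel and Acta1, and the 3 genes of highest r for each tested gene. Krt36, Krt84, Krt13 and Krt4 were added as denominators after their values were seen. F13a1, Sprr2d and the T lymphocyte markers were named outside the rule, also after their values were seen. Acta1 stood at 859 ± 141 CPM in inhibition grafts and 398 ± 123 CPM in control grafts (SD, n = 3 each).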

Additional observations from a re-analysis of the deposited data

How the results depend on the processing

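RLE and upper-quartile factors, limma-voom and the stricter filter changed no direction or call among the 6 tested regulators and enzymes (the stricter filter dropped Dlx3 and Foxn1). Without the count filter edgeR called 4 of the 10 genes, with log2 fold changes of 2.85 for Dlx3, 2.17 for Foxn1 and 1.24 for Tgm1 among them, and DESeq2 called 2 (Dlx3 at 2.89 and Tgm1 at 1.24). At an adjusted p under 0.1 the count was 0. Leaving out 1 library gave 0 to 1 calls, the call being Dlx3 without inhibition 3, and the log2 fold changes ranged from 2.33 to 3.29 for Dlx3, 1.54 to 2.50 for Foxn1, 0.97 to 1.64 for Tgm1, 1.42 to 2.38 for Tgm3, 0.72 to 1.30 for Padi1 and -0.30 to 0.54 for Padi3. Without both replicates 2, a choice made after seeing the data, they were 2.46, 1.58, 1.38, 1.76, 1.18 and 0.18, in the same order.

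Called genes without the count filter were 7 hard keratins, 21 keratin-associated proteins, 3 transglutaminases, 2 enzyme substrates, 8 other keratinocyte factors and 2 Wnt, BMP, Shh or Eda genes. All were higher in inhibition grafts except the substrate Cstb, which was lower (-0.30, edgeR adjusted p = 0.0432). Over all genes that fit called 748 higher and 439 lower. In DESeq2 they were 11 hard keratins, 19 keratin-associated proteins, 1 transglutaminase, 3 substrates and 3 keratinocyte factors. These were all higher, and over all genes DESeq2 called 344 higher and 183 lower. Limma-voom, and edgeR without both replicates 2, called 0 keratin-associated proteins. With 1 library left out the calls ranged from 0 to 8 hard keratins, 0 to 18 keratin-associated proteins, 0 to 4 substrates and 0 to 4 keratinocyte factors, and the deiminase median ranged from -0.06 to 0.37. The highest of these counts came without inhibition 3. Over all genes that fit called 170 higher and 47 lower, and 3 of its 4 called substrates were higher.

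Deviations from the group means correlated at -0.18, 0.327 and 0.0865 between same-numbered samples, and at -0.386 to 0.295 between differently numbered ones. These correlations do not settle whether the samples were paired. The replicate block gave log2 fold changes of 2.66 for Dlx3, 2.04 for Foxn1, 1.69 for Tgm3, 1.20 for Tgm1, 0.95 for Padi1 and 0.22 for Padi3, with 0 calls among them, and called 2 hard keratins and 5 keratin-associated proteins.

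The log2 ratio to basal keratins was 0.59 for Lef1, 0.31 for Padi3, 1.54 for Hoxc13 and 1.63 for Msx2. Against the squamous list it turned to -0.28 for Lef1 and -0.56 for Padi3, and against Krt13 plus Krt4 to -0.63, -0.91 and, for Padi1, -0.22. Against Krt36 plus Krt84 it was -0.45 for Hoxc13, -0.35 for Msx2, -1.39 for Lef1, -0.98 for Padi1, -1.67 for Padi3, -0.73 for Tgm1 and -0.27 for Tgm3. Each denominator moves all genes by the same amount, so the signs that turn are those of the genes nearest to 0. Krt13 plus Krt4 and Krt36 plus Krt84 were chosen after seeing the data. With 1 library left out the Padi3 ratio ranged from -0.23 to 0.86. Under 30 reads per library limit every statement on Hoxc13, Msx2, Lef1, Padi1, Padi3 and S100a3. Foxn1 and Dlx3 are limited too, with no more than 7 counts in any control graft and 15 and 16 counts in inhibition 3.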
